A study of Mus musculus with 6 samples.

Results

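The 36 genes described here encode the folding enzymes, the degradation machinery and the stress sensors of the endoplasmic reticulum (ER), the compartment in which secreted proteins such as insulin are made. They were taken by symbol (GENCODE M21 names on GRCm38) from a table of 46983 mouse genes, and all 36 were found there and had enough counts to be tested. RNA was sequenced from isolated wild-type mouse pancreatic islets, which contain the insulin-producing beta cells together with other endocrine cells, after 24 h of culture in CMRL medium. The 3 low glucose libraries came from islets at a non-stimulating and the 3 high glucose libraries from islets at a stimulating glucose concentration. The labels call the material beta cells or pancreatic islets, and the title of the study names redox signaling in the adaptation of beta cells. Glucose concentrations, mouse strain, age, sex and animals per library are not stated in the labels.

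Proteins enter the ER through the Sec61 channel and are folded by the Hsp70 chaperone BiP with its J-domain partners, by the lectin chaperones calnexin and calreticulin, and by disulfide isomerases that are recharged by Ero1 oxidases. Proteins that fail to fold are led back to the cytosol by the Sel1l-Hrd1 complex and destroyed, a route called ER-associated degradation. The sensors IRE1, PERK and ATF6 answer a load of unfolded protein by raising these genes, among them through the transcription factor XBP1. Islet beta cells and the neighbouring acinar cells of the exocrine pancreas, which secrete digestive enzymes, are both known for a large ER.

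Many genes of this system share the ER stress response element (ERSE), a promoter motif read by ATF6 and XBP1. The stretches below show it in the RefSeq promoters (GRCm38.p6) of 10 members. An eleventh, Herpud1, carries the related ERSE-II. Each is the gene's own strand, 5′ to 3′, with the motif in capitals.
Hspa5, chr2:34771985-34772083, plus strand: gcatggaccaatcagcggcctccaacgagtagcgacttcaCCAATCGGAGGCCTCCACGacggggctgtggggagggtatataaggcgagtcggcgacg
Hsp90b1, chr10:86705493-86705694, minus strand: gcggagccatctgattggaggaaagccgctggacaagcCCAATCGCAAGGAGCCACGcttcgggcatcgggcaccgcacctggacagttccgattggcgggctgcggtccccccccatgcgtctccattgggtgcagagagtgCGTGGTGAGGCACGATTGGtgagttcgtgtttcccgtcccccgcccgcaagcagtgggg
Calr, chr8:84847035-84847133, minus strand: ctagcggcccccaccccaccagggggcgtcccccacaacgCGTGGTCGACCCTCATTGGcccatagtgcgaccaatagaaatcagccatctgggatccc
Canx, chr11:50325760-50325858, minus strand: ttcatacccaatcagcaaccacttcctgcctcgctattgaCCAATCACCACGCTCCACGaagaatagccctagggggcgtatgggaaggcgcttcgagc
Pdia6, chr12:17266451-17266549, plus strand: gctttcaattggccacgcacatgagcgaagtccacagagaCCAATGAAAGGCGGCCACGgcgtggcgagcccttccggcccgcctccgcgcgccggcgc
Creld2, chr15:88819480-88819578, plus strand: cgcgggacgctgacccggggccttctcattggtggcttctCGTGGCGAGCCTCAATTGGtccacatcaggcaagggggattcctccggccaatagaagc
Syvn1, chr19:6046492-6046575, plus strand: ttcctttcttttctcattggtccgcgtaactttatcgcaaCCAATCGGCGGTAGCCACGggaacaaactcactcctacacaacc
Dnajc3, chr14:118937787-118937885, plus strand: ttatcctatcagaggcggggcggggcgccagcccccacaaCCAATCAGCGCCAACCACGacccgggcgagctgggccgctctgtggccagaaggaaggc
Ero1lb, chr13:12565642-12565740, plus strand: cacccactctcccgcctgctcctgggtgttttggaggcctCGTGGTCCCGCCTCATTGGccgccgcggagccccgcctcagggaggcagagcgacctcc
Derl3, chr10:75893202-75893300, plus strand: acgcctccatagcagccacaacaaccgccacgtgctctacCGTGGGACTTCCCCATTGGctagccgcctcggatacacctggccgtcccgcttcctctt
Herpud1, chr8:94386337-94386427, plus strand: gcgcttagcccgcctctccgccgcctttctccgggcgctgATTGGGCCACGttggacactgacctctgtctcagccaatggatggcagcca
ERSE was searched as CCAAT, then 9 bases of any kind, then CCACG, on both strands of windows from 250 bases before to 50 bases after each start site. A match on the opposite strand reads from CGTGG to ATTGG in the lines above, as in Calr, Creld2, Ero1lb, Derl3 and the second match of Hsp90b1. It was found in 10 of the 31 members with a promoter entry and in 39 of all 32851 windows (0.119%). ERSE-II, searched likewise as ATTGG, 1 base of any kind and CCACG, was in 2 members and in 12 windows (0.0365%). No match overlapped another in these members. The second member with ERSE-II was Dnajb11, where it began 7 bases after the start. Another motif, UPRE (TGACGTGG), was in 0 of the 31 members and in 0.676% of all windows, which says only that these letters are not in the windows of the members. No entry was used for Atf6, Derl1, Hyou1, Manf and Sec61a1.

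At high glucose 10 of the 36 members fell and 3 rose in edgeR's quasi-likelihood test, with adjusted p under 0.05 over all 13996 genes tested. The falls were 6 of the 9 degradation genes (Sel1l, Derl3, Edem1, Edem2, Edem3 and Herpud1), the oxidase gene Ero1lb, the isomerase genes P4hb and Ppib, and the co-chaperone gene Dnajc3. The rises were Ero1l, Dnajb9 and Dnajc10. The major chaperone genes Hspa5, Hsp90b1, Calr and Canx, the 5 genes of the sensor group and the 3 Sec61 genes did not pass. Of all genes tested, 14.2% fell and 13.3% rose, or 27.5% together. Of the members, 27.8% fell and 8.33% rose, or 36.1% together. The groups did not overlap for 47.2% of the members and for 45.9% of all genes, so that share was near the background. The median log2 fold change (high minus low) was -0.31 for the members and 0.01 for all genes.

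The libraries were not alike in makeup. Totals ran from 10596020 to 15846235 counts. Acinar markers, 25 genes, made up 49.2%, 65.1% and 62.8% of a low glucose library (replicates 1, 2 and 3 in turn). They made up 12.7%, 25.3% and 24.5% of a high glucose library. Of these markers 23 of 25 fell, their summed level was 523762 to 1154959 CPM at low against 71417 to 184784 CPM at high glucose, and none was at 0 in any library. The 10 beta-cell markers, all detected in every library, took 1.47% to 3.17% of the counts at low and 2.42% to 7.08% at high glucose, and 5 of them fell. All 8 enterocyte markers fell, from a summed 1506 to 5093 CPM at low to 20.8 to 144 CPM at high glucose, where Lct and Sis were at 0 in some libraries. Levels are CPM (counts divided by a TMM-scaled library size and multiplied by 1e+06); TMM sets the typical gene to no change. Library totals in place of TMM shifted the median of all genes, on the log2 scale, from 0.01 to 1.16. In such bulk samples, fewer cells of a type and less RNA per cell cannot be told apart.

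**Figure D1:**
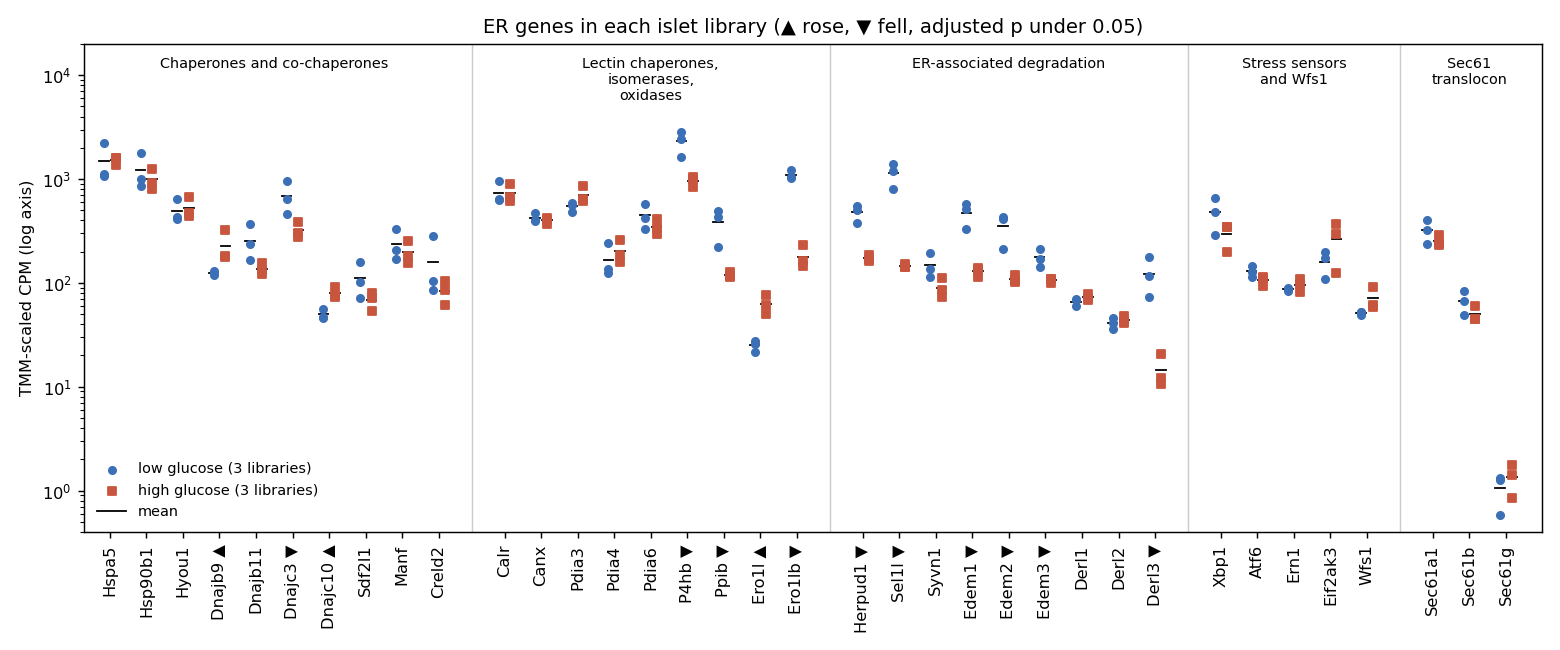
TMM-scaled CPM on a log axis for the 36 ER genes in each library, ordered by role. Blue circles are the 3 low and red squares the 3 high glucose libraries, bars are means, and triangles mark genes with an adjusted p under 0.05. The degradation genes Sel1l and Derl3 show wide gaps between the groups, while the groups overlap for Hspa5, Hsp90b1, Calr and Canx.

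Of the 10 chaperone and co-chaperone genes, the groups did not overlap for 4 (40%), near the 45.9% of all genes tested. Hspa5, which encodes BiP, had 1082, 1123 and 2228 CPM at low and 1612, 1365 and 1587 CPM at high glucose. Low glucose replicate 3 was the highest of all and the other 2 low glucose libraries the lowest. The log2 fold change was 0.04 ± 0.35 (SE) with an edgeR adjusted p of 0.94, and it was 1.28 with library totals, past the threshold and near the median shift. Hsp90b1, the ER member of the Hsp90 family, had 1009.8, 866.9 and 1764 CPM at low and 1242, 806.2 and 925.2 CPM at high glucose, again with low glucose replicate 3 the highest. Its log2 fold change was -0.29 ± 0.35 (edgeR adjusted p of 0.567; 0.94 with library totals, which did not pass). Hyou1, a BiP-related exchange factor, did not pass either (0.09 ± 0.28), but passed with library totals (1.33). Creld2, Sdf2l1 and Manf, small ER proteins induced by stress, had log2 fold changes of -0.92 ± 0.45, -0.70 ± 0.30 and -0.27 ± 0.31 and did not pass. All 3 were positive with library totals (0.40, 0.57 and 1.00), where Manf passed. Manf shares exonic bases with Rbm15b and Dcaf1, and its counts are uncertain because the strand setting of the counting was not given. The same holds, with genes on the opposite strand, for Syvn1 (Mrpl49), Derl2 (Mis12), Pdia3 (Catsper2) and Ppib (Snx22).

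The J-domain partners of BiP moved in different directions. Dnajb9, which also restrains IRE1, had 125.0, 130.8 and 119.2 CPM at low and 325.6, 178.6 and 182.4 CPM at high glucose. The groups did not overlap, and high glucose replicate 1 stood above the other 2. The log2 fold change was 0.87 ± 0.26, with an edgeR adjusted p of 0.045. Dnajc10, a disulfide reductase that works in degradation, rose by 0.68 ± 0.16, from 46.1, 46.5 and 56.6 CPM to 91.6, 75.0 and 72.7 CPM (edgeR adjusted p of 0.0201). Dnajc3, a co-chaperone also known as an inhibitor of eIF2alpha kinases, had 460.0, 645.6 and 951.5 CPM at low and 385.8, 275.6 and 305.0 CPM at high glucose. It fell by 1.09 ± 0.31 (edgeR adjusted p of 0.0376), but was 0.18 with library totals. Dnajb11, which delivers unfolded proteins to BiP, had a value of -0.91 ± 0.30 just outside the threshold (edgeR adjusted p of 0.0588), and 0.36 with library totals.

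Some of these calls changed when 1 library was left out. Over all genes, 1743 to 5685 passed in such fits, against 3848 with all 6 libraries. The call of Dnajb9 was lost when low glucose replicate 1 (0.88), 2 (0.92) or 3 (0.86) or high glucose replicate 3 (1.02) was left out, and that of Dnajc10 with low glucose replicate 1 (0.63) or 2 (0.65) left out. That of Dnajc3 was lost with low glucose replicate 2 (-1.12) or 3 (-0.76), or high glucose replicate 2 (-0.98) or 3 (-1.04), left out. Dnajb11 passed without low glucose replicate 1 (-1.14) or high glucose replicate 1 (-1.01).

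The Ero1 oxidases changed in opposite directions. Ero1lb, the form enriched in the pancreas, lies on chromosome 13 (12565874 to 12611396, GRCm38) and had 1017, 1042 and 1233 CPM at low and 230.3, 145.3 and 161.2 CPM at high glucose. Every high glucose library was far below every low glucose one. The mean fell from 1098 ± 118 to 179 ± 45.2 CPM (SD, n = 3 each). In raw counts these were 12156, 6270 and 7844 against 6511, 2911 and 3200. The log2 fold change was -2.62 ± 0.27 with an edgeR adjusted p of 0.00132, and -1.41 with library totals, still past the threshold. Ero1l, the widely expressed form, lies on chromosome 14 (45283087 to 45318771). It had 26.0, 21.6 and 27.7 CPM at low and 60.8, 50.5 and 76.2 CPM at high glucose, with no overlap. It rose by 1.31 ± 0.19 (edgeR adjusted p of 0.00354), and by 2.46 with library totals. Both kept their call with any 1 library left out.

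A ratio of 2 genes inside a library does not depend on the scaling between libraries. Counts per kilobase of exon were 31.0, 38.3 and 35.4 times higher for Ero1lb than for Ero1l in the low glucose libraries. At high glucose they were 3.01, 2.29 and 1.68 times higher. The ratio was thus 15.4-fold lower at high glucose, although Ero1lb remained the more abundant form. It is 1 of 20 such ratios, which were chosen after the values had been seen, and its groups did not overlap. Its two-sided exact permutation p of 0.1 is the smallest that 3 against 3 libraries allow (0.143 adjusted over the 20). In the promoter lines above, Ero1lb carries an ERSE, and no ERSE was found in the Ero1l window. A link between the motif and these changes was not tested.

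**Figure D2:**
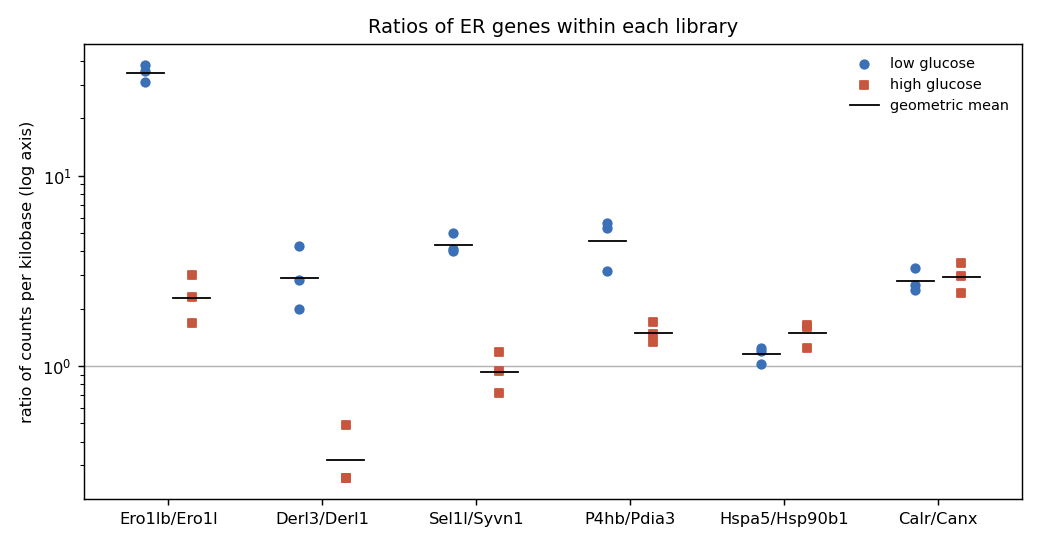
Ratios of counts per kilobase of exon for 6 pairs of ER genes, on a log axis. Blue circles are the low and red squares the high glucose libraries, and bars are geometric means of 3. The Ero1lb to Ero1l ratio is 31.0 to 38.3 at low and 1.68 to 3.01 at high glucose, whereas the Calr to Canx ratio overlaps between the groups.

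Among the isomerases, P4hb and Ppib fell and the other disulfide isomerase genes did not pass. P4hb, the classical protein disulfide isomerase, was the most abundant member per kilobase at low glucose. Its levels were 1630.0, 2448 and 2854 CPM at low and 1043, 831.8 and 1006 CPM at high glucose, with no overlap. It fell by 1.27 ± 0.31 (edgeR adjusted p of 0.0231), but was -0.020 with library totals and then did not pass. Its call was also lost when low glucose replicate 2 (-1.21) or 3 (-1.07), or high glucose replicate 2 (-1.17) or 3 (-1.29), was left out. Ppib, the ER prolyl isomerase cyclophilin B, had 223.2, 435.2 and 497.7 CPM at low and 114.8, 115.4 and 127.8 CPM at high glucose. Its lowest low glucose library was replicate 1, which was still above all high glucose libraries. Ppib fell by 1.69 ± 0.31 (edgeR adjusted p of 0.00783), and was -0.42 with library totals, which did not pass.

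Pdia3, the isomerase that works with calnexin and calreticulin, had 567.7, 476.8 and 589.5 CPM at low and 858.1, 619.2 and 646.0 CPM at high glucose. The groups did not overlap, but its log2 fold change of 0.38 ± 0.23 did not pass (edgeR adjusted p of 0.264). Pdia4 (0.27 ± 0.31), Pdia6 (-0.37 ± 0.27; 0.88 with library totals), Calr (-0.02 ± 0.28; 1.21) and Canx (-0.09 ± 0.19; 1.08) did not pass, and their groups overlapped. With library totals all 4, and Pdia3, passed. The ratio of P4hb to Pdia3 per kilobase was 3.15, 5.63 and 5.31 at low and 1.33, 1.47 and 1.71 at high glucose, and its groups did not overlap. That of Calr to Canx was 2.50, 2.65 and 3.28 at low and 3.49, 2.43 and 2.98 at high glucose, and its groups overlapped.

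The degradation genes held the largest changes of the 36. Sel1l, the scaffold of the Hrd1 ubiquitin ligase complex, lies on chromosome 12 (91806043 to 91849157). It had 810.3, 1188 and 1411 CPM at low and 142.2, 153.0 and 141.1 CPM at high glucose. The high glucose libraries were close together and the lowest low glucose library was several times above them. Sel1l fell by 2.97 ± 0.28 (edgeR adjusted p of 0.00104), a 7.81-fold lower level, and was -1.74 with library totals, where it also passed. Syvn1 encodes Hrd1, the ligase that Sel1l holds, and had 114.9, 135.8 and 195.5 CPM at low and 112.4, 73.1 and 85.2 CPM at high glucose. Its groups did not overlap, but its value of -0.72 ± 0.26 did not pass (edgeR adjusted p of 0.0725; 0.53 with library totals). Without high glucose replicate 1, Syvn1 passed (-0.91). Within libraries the Sel1l to Syvn1 ratio per kilobase was 4.01, 4.97 and 4.10 at low and 0.718, 1.19 and 0.94 at high glucose.

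Derlins form part of the channel through which proteins leave the ER, and the 3 genes differed. Derl3 lies on chromosome 10 (75893413 to 75895941) and had 72.4, 116.4 and 178.3 CPM at low and 12.2, 10.6 and 20.7 CPM at high glucose. Every high glucose library was below every low glucose one. It fell by 3.08 ± 0.40 (edgeR adjusted p of 0.00233), the largest change among the members, and was -1.82 with library totals, where it passed too. Derl1 ranged from 60.3 to 69.5 CPM at low and, at high glucose, from 69.0 to 78.5 CPM (0.14 ± 0.14; 1.32 with library totals), and Derl2 had 35.9 to 45.9 and 40.9 to 47.9 CPM (0.10 ± 0.15; 1.24). Neither passed with TMM, both passed with library totals, and both overlapped between the groups. Per kilobase, Derl3 exceeded Derl1 at low glucose (ratios of 2.00, 2.83 and 4.28) and was below it at high glucose (0.259, 0.257 and 0.487).

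The Edem proteins trim mannose from misfolded glycoproteins and so mark them for degradation. Edem1 had 331.9, 573.0 and 516.4 CPM at low and 115.0, 133.6 and 138.9 CPM at high glucose, with no overlap. It fell by 1.87 ± 0.25 (edgeR adjusted p of 0.00275), and was -0.65 with library totals, where it passed. Edem2 had 213.8, 431.5 and 414.7 CPM at low and 107.2, 101.9 and 118.7 CPM at high glucose, and fell by 1.69 ± 0.29 (edgeR adjusted p of 0.00623; -0.43 with library totals, which did not pass). In both genes low glucose replicate 1 was the lowest of its group. Edem3 showed the smallest fall, by 0.74 ± 0.19 (edgeR adjusted p of 0.027), and was 0.47 with library totals. The call of Edem3 was lost with low glucose replicate 2 (-0.75) or 3 (-0.56), or high glucose replicate 2 (-0.75) or 3 (-0.69), left out.

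Herpud1, an ER membrane protein that gathers degradation complexes, had 375.8, 549.1 and 507.3 CPM at low and 184.7, 162.8 and 170.3 CPM at high glucose. It fell by 1.47 ± 0.22 (edgeR adjusted p of 0.00354), and was -0.25 with library totals, short of the threshold. Relative to Hspa5 in the same library, counts per kilobase of Sel1l were 8.30-fold, of Ppib 3.33-fold, of Herpud1 2.98-fold and of Dnajc3 2.24-fold lower at high glucose. The groups did not overlap for any of these 4 ratios. All 4 genes had already been called as falls and Hspa5 was nearly unchanged (0.04), so the ratios are not a separate test of the falls. Each had a two-sided exact permutation p of 0.1 (0.143 adjusted over the 20 ratios).

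**Figure D3:**
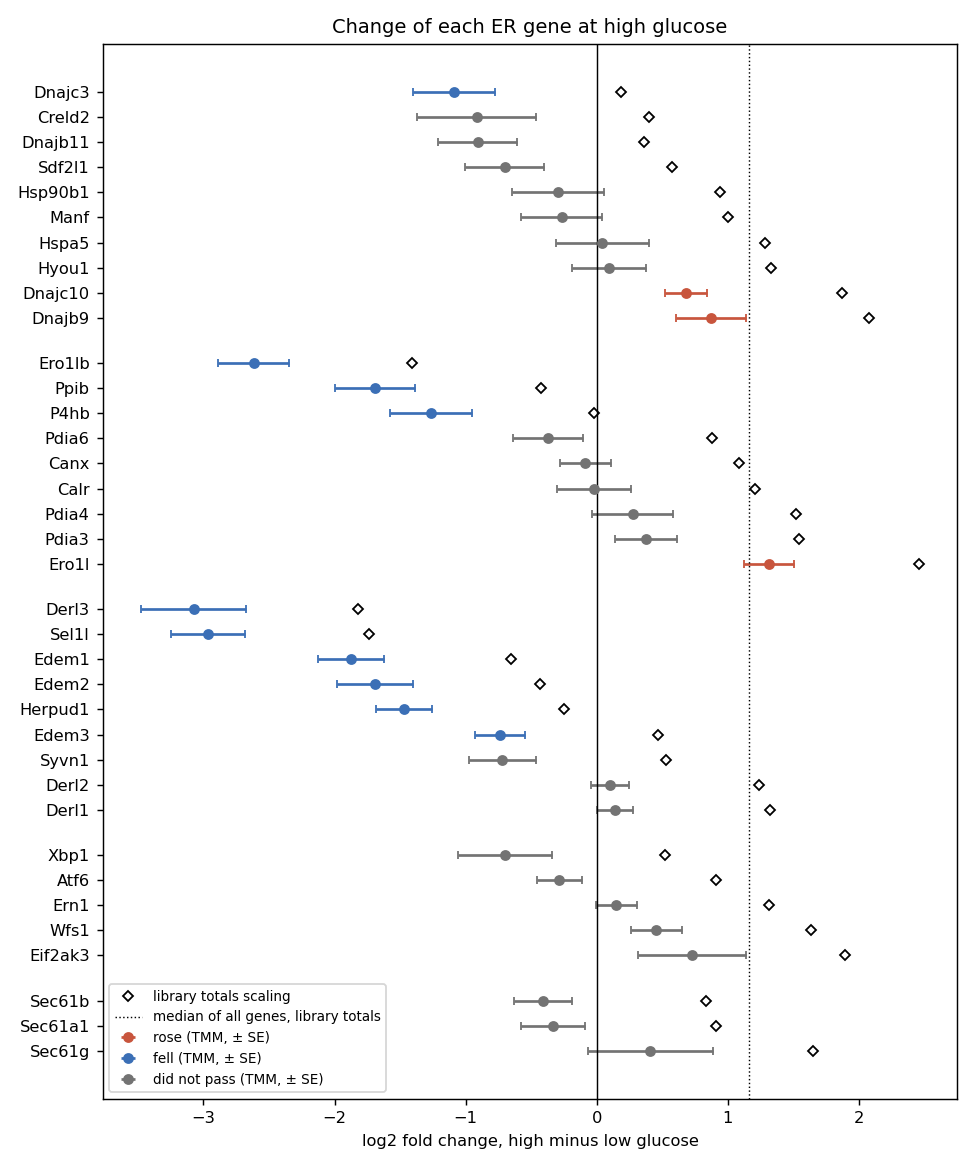
Log2 fold change (high minus low glucose) of each ER gene, as a circle with its SE under TMM scaling and as a diamond under library totals, grouped by role. Red genes rose, blue genes fell and grey genes did not pass under TMM, and the dotted line is the median of all genes under library totals (1.16). Derl3, Sel1l and Ero1lb lie farthest to the left under both scalings.

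None of the 5 genes of the sensor group passed the main test. Xbp1, the transcription factor spliced by IRE1, had 290.5, 486.4 and 657.5 CPM at low and 197.6, 343.3 and 343.0 CPM at high glucose. In each group replicate 1 was the lowest. Its log2 fold change was -0.70 ± 0.36 (edgeR adjusted p of 0.181), and 0.52 with library totals. With the replicate number as a block Xbp1 passed, at -0.67 with an edgeR adjusted p of 0.0322. These counts do not separate the spliced from the unspliced form. Eif2ak3, which encodes PERK, had 109.6, 172.9 and 197.0 CPM at low and 124.2, 371.5 and 296.7 CPM at high glucose. High glucose replicate 1 lay inside the low glucose range and the other 2 lay above it. The value was 0.73 ± 0.41 (edgeR adjusted p of 0.224). Eif2ak3 passed without high glucose replicate 1 (1.07) and with library totals (1.89).

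Ern1, the IRE1 gene, had 88.0, 83.0 and 89.6 CPM at low and 109.2, 98.5 and 81.7 CPM at high glucose (0.15 ± 0.16; 1.31 with library totals, where it passed). Atf6 had 115.1, 128.2 and 146.6 CPM at low and 115.3, 112.3 and 92.5 CPM at high glucose (-0.28 ± 0.17; 0.91 with library totals, where it passed). Both overlapped between the groups, with edgeR adjusted p of 0.512 and 0.25. Wfs1, an ER membrane protein whose loss causes diabetes in Wolfram syndrome, had 53.0, 52.7 and 49.2 CPM at low and 91.4, 61.9 and 59.2 CPM at high glucose. Its groups did not overlap, but the value of 0.46 ± 0.19 did not pass (edgeR adjusted p of 0.119). It was 1.64 with library totals and passed there. The Sec61 channel genes did not pass: Sec61a1 had -0.33 ± 0.24 (0.91 with library totals), Sec61b -0.41 ± 0.22 (0.84) and Sec61g 0.41 ± 0.47. All 3 passed with library totals. Sec61g rested on only 7 to 50 counts in a library.

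Of the 10 members with an ERSE, 3 fell (Derl3, Ero1lb and Dnajc3), 7 did not pass and 0 rose, a share of falls near the 27.8% of all members and against 14.2% of all genes tested (13.3% rose). The range ran from Derl3 at -3.08 to Hspa5 at 0.04. Herpud1, with an ERSE-II, fell, and Dnajb11, with an ERSE-II, did not pass. Sel1l fell without a match of either motif in its window. Across the whole table, 37 genes had an ERSE in a window, 18 of them were tested, and 3 fell, 1 rose and 14 did not pass.

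The order of levels within the list changed between the groups. On the scale of CPM per kilobase of exon, P4hb led at low glucose (569.7, 855.6 and 997.6), ahead of Hspa5 (255.8, 265.6 and 526.9) and Hsp90b1 (250.5, 215.0 and 437.6). The ranges of Hspa5 and Hsp90b1 overlapped, so their order is not settled. At high glucose Hspa5 (381.2, 322.8 and 375.3) and P4hb (364.6, 290.7 and 351.6) led with overlapping ranges. Sel1l stood at rank 10 of 36 at low and rank 28 at high glucose, Ero1lb at rank 7 and rank 23, and Derl3 at rank 22 and rank 34. Dnajb9 stood at rank 24 at low and rank 8 at high glucose. As a share of all counts, the 36 genes together took 1.1%, 0.822% and 1.06% at low and 1.98%, 1.21% and 1.35% at high glucose. Their summed TMM-scaled level ran the other way, with 11700, 14480 and 19533 CPM at low and 11114, 8880 and 9657 CPM at high glucose, so the direction of the sum turns with the scaling.

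A second list held 87 other ER genes, for translocation, glycosylation, folding, degradation and signaling, and 86 were tested. Of these 10 rose and 20 fell, 11.6% and 23.3%, beside 13.3% and 14.2% of all genes, so the share of rises was near the background. The median was -0.10 (0.01 for all genes). Without low glucose replicate 1, low glucose replicate 2, high glucose replicate 2 or high glucose replicate 3, 6 rose. Rises over all genes then dropped from 1861 to 1102, 708, 1103 and 827 in turn. Without low glucose replicate 2 only 5 fell, and without low glucose replicate 3, high glucose replicate 2 or high glucose replicate 3, 9, 8 and 6 fell. Falls over all genes dropped from 1987 to 1035, 1589, 1469 and 1172 in the same order. Ordered by p, the leading falls were Creb3l3, a transcription factor of liver and gut (-5.23 ± 0.63), and Bhlha15, the secretory-cell regulator MIST1 (-2.80 ± 0.34). Next came the pancreatic isomerase Pdia2 (-2.67 ± 0.40), the prolyl isomerase Fkbp11 (-2.22 ± 0.35) and the ER peroxiredoxin Prdx4 (-2.60 ± 0.43). The falls of all 5 also passed with library totals. Their edgeR adjusted p ran from 0.0018 for Creb3l3 to 0.00557 for Prdx4. Creb3l3 had 70.1, 43.9 and 15.6 CPM at low and only 1.24, 1.60 and 0.605 CPM at high glucose. The summed enterocyte markers had 5093, 3980 and 1506 CPM at low and 144, 31.4 and 20.8 CPM at high glucose. A link between them and Creb3l3 was not tested.

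The leading rises were Prkcsh, the regulatory subunit of glucosidase II (1.01 ± 0.15), and Bax, a mitochondrial death effector that also acts at the ER (1.78 ± 0.27). They were followed by the signal peptidase subunit Sec11a (0.92 ± 0.15), the p97 cofactor Nploc4 (0.87 ± 0.14) and Ddit3 (1.76 ± 0.30). Ddit3, which encodes the transcription factor CHOP that PERK signaling induces, had 11.4, 8.48 and 7.08 CPM at low and 20.3, 32.7 and 39.3 CPM at high glucose, with no overlap and an edgeR adjusted p of 0.0058. By role, 7 of 18 other folding genes fell (38.9%) and 1 rose (5.56%). Of 20 other translocation genes 5 fell (25%) and 1 rose (5%). Of 14 other sensors and regulators 4 fell (28.6%) and 3 rose (21.4%). Of 18 other degradation genes 3 fell and 3 rose, 16.7% each and near the shares of all genes (14.2% and 13.3%). Of 16 glycosylation genes 1 fell (6.25%) and 2 rose (12.5%). Differences between these roles were not tested.

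Acinar markers and cargo genes were measured beside these changes. Cpa1, an acinar digestive enzyme gene, averaged 83034 ± 32324 CPM in the 3 low against 11573 ± 4986 CPM in the 3 high glucose libraries (mean ± SD). Cpa1 fell by 2.84 ± 0.73 and Cela2a by 2.97 ± 0.73 (edgeR adjusted p of 0.026 and 0.0224). Both calls were lost with low glucose replicate 2 (-2.63 and -2.79) or 3 (-2.69 and -2.77), or high glucose replicate 2 (-3.08 and -3.16) or 3 (-2.97 and -3.16), left out. The insulin genes Ins1 and Ins2 had -0.43 ± 0.44 and -0.41 ± 0.51 and did not pass (0.76 and 0.78 with library totals). Counts per kilobase of Sel1l relative to Cpa1 were 0.00361, 0.00232 and 0.00293 at low and 0.00494, 0.00206 and 0.00211 at high glucose. The groups overlapped for that ratio, and also for Derl3 and Ero1lb relative to Cpa1. The outcome differed among the 25 acinar markers, which was looked at after the values had been seen. Relative to each in turn, the groups overlapped for 21 with Sel1l, 20 with Derl3 and 22 with Ero1lb. These 3 had the largest falls of the members, and 23 of the 25 markers fell too. Overlap could thus follow from the sizes of falls already seen, and the ratios are not a separate test. The other members were not set against all 25 markers. Sel1l was lower at high glucose in every library relative to 1 marker (Ctrb1) and higher relative to 3, Derl3 lower relative to 3 and higher relative to 2, and Ero1lb higher relative to 3. Relative to Ins2, Ero1lb was 4.37-fold lower at high glucose with no overlap, and the groups overlapped for Hspa5 relative to Ins2.

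Within the groups the members and the acinar markers did not always share an order. Low glucose replicate 1 had the lowest acinar share of its group and also the lowest level of all 10 members that fell. That order was not particular to the falls. The same library was also the lowest of its group for most of the 23 members that did not pass, such as Hspa5, Calr and Atf6. The exceptions among those 23 were Hsp90b1, Canx, Pdia3, Pdia4, Derl2, Ern1 and Wfs1. The order was not counted over all genes. High glucose replicate 1 had 71417 CPM of summed acinar markers against 184784 and 174466 CPM in replicates 2 and 3. It was the lowest of its group for 2 of these 10 members, Ppib (114.8 against 115.4 and 127.8 CPM) and Edem1 (115.0 against 133.6 and 138.9 CPM), and not for the other 8. Its Sel1l (142.2 against 153.0 and 141.1 CPM) and Ero1lb (230.3 against 145.3 and 161.2 CPM) are among those 8. With the acinar markers left out of the table before scaling, 10 members fell and 3 rose, the same 13 genes. That step bears on the scaling alone. It leaves the members' own counts as they were, whatever cells they came from. The part of acinar cells in these falls was not tested.

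**Figure D4:**
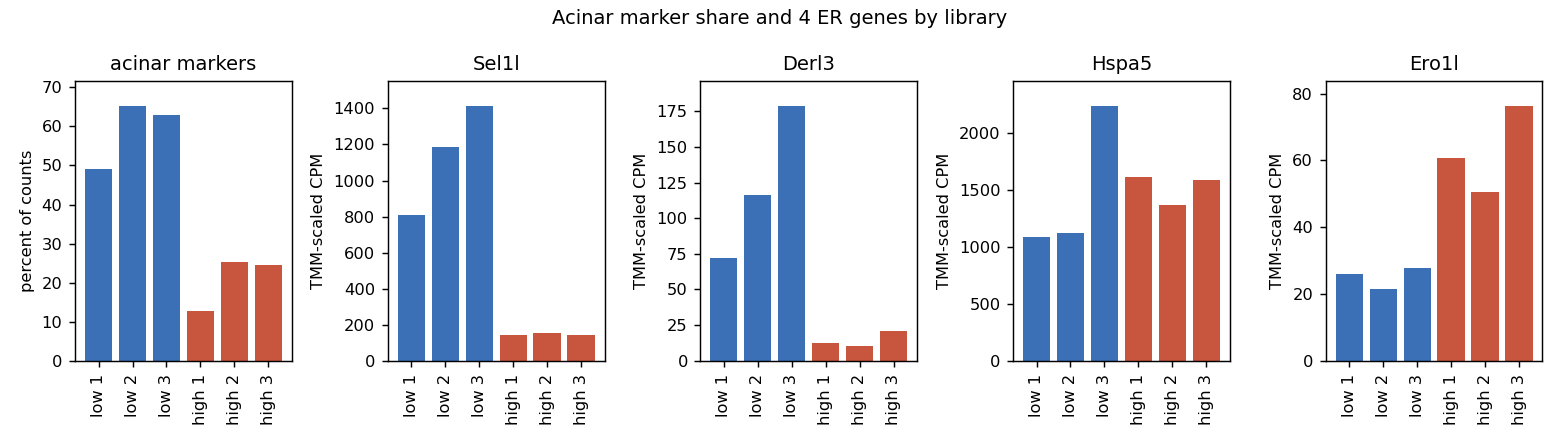
Share of counts in the 25 acinar markers (percent, first panel) and TMM-scaled CPM of Sel1l, Derl3, Hspa5 and Ero1l, with 1 bar per library and all axes from 0. Low glucose libraries are blue and high glucose libraries red. The acinar share is 49.2% to 65.1% at low and 12.7% to 25.3% at high glucose, Sel1l and Derl3 are lower in every high glucose library, Hspa5 overlaps, and Ero1l is higher in every high glucose library.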

How the data were processed

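The deposited values were raw counts of reads per Ensembl gene, 1 column per library, made by the authors with STAR 2.7.3a and HTSeq 0.6.1p1 on GRCm38, per the submitters' processing notes. Per the labels' protocols, libraries were poly-A selected. No label or header names the annotation release, strand setting or read filters. Columns were assigned by their names and groups by the labels.

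The glucose groups were tested against each other in edgeR 4.0.16 under R 4.3.3 (quasi-likelihood F-test) after TMM scaling and filterByExpr (minimum count 10, minimum total 15), with Benjamini-Hochberg adjusted p over 13996 genes and a threshold of 0.05. SEs were derived from the log2 fold change and the F statistic (absolute change over root F). Names, coordinates and exonic lengths (all annotated exons of a gene merged) came from GENCODE M21, in which 495 genes, holding 0.0141% of the counts, had no name. Promoters were RefSeq windows on GRCm38.p6, matched by symbol, or by gene ID for Ero1l and Ero1lb. Figures were drawn with matplotlib 3.10.9.

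The members and lists were chosen with earlier results of these data known. All 36 members are named. Values in every library are given for Hspa5, Hsp90b1, the sensors, Wfs1, the Ero1 genes, Ddit3, up to 6 called members with the largest change in each direction, and some others picked after their values were seen. Of the other ER list the 5 smallest p in each direction are named. Marker lists for other endocrine, duct, plasma cell, fibroblast and macrophage cells were also summed: of their members 0 rose and 1 fell of 10, 3 and 1 of 8, 1 and 2 of 8, 0 and 2 of 8, and 2 and 1 of 8.

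Nothing in the labels says that libraries came from separate animals, and the spread that the p-values rest on may therefore be technical. The least different pair of libraries within a group differed beyond sampling noise (chi-square over its degrees of freedom, 17.4). Deviations of same-numbered libraries from their group means correlated at 0.403, 0.257 and 0.254, against -0.306 to 0.0748 for other numbers, so by the rule used (every pair over 0.1) the numbers were treated as pairing the libraries, from the data and not from a label. That pairing was used only in the alternative with a replicate block. The test reported has no block, and the permutation p-values do not use the pairing either. With the block 4670 of 13996 genes passed, against 3848 without it, and the call of Xbp1 changed.

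Alternatives were DESeq2 size factors, library totals, acinar markers left out, 2 other filters (none, or 50 counts in 3 libraries), DESeq2 1.42.0, limma-voom (limma 3.58.1), leaving out each library, and the replicate block. On simulated counts for this comparison 13996 genes were simulated, 200 of them changed, and 13860 were tested. Of the tested genes, 71 of 99 changed 4-fold and 17 of 98 changed 2-fold were recovered. Of 95 calls 7 were unchanged genes.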

Additional observations from a re-analysis of the deposited data

How the results depend on the processing

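All 36 members kept their direction and their side of the threshold with DESeq2 size factors, with limma-voom and with the acinar markers left out. DESeq2's own test called 3 higher and 12 lower, adding Dnajb11 (-0.91, adjusted p of 0.0145) and Syvn1 (-0.73, adjusted p of 0.0339). Over all genes DESeq2 called 2181 higher and 2354 lower. With library totals 8965 of 13996 genes passed (3848 with TMM), of which 8337 rose and 628 fell. There 20 of 36 members rose and 4 fell, and 61 of 86 other ER genes rose and 5 fell. Rises thus prevailed over all genes as in both lists. An alternative chosen after seeing the data took totals of the 123 ER genes as library sizes. It scales these genes by their own sum. With it 6 members rose (7 fell), and of the other ER genes 23 rose and 5 fell. Over all 13996 genes 3512 rose and 1045 fell. With 1 library left out, 1743 to 5685 of all genes passed, with 708 to 2793 rising and 1035 to 2892 falling. Of the members 1 to 4 rose and 7 to 12 fell. Of the other ER genes 6 to 11 rose and 5 to 23 fell. Every left-out library kept the calls of Sel1l, Derl3, Ero1lb, Edem1, Edem2, Herpud1, Ppib and Ero1l. The replicate block gave 3 members and 2197 of all genes higher, and 11 members and 2473 of all genes lower. It changed the call of Xbp1 and of no other member.

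The direction turned with library totals for Hsp90b1 (0.94), Dnajb11 (0.36), Dnajc3 (0.18), Sdf2l1 (0.57), Manf (1.00), Creld2 (0.40), Calr (1.21), Canx (1.08), Pdia6 (0.88), Syvn1 (0.53), Edem3 (0.47), Xbp1 (0.52), Atf6 (0.91), Sec61a1 (0.91), Sec61b (0.84), Ins1 (0.76), Ins2 (0.78), Sec11c (0.10), Ganab (1.06) and Mbtps1 (0.54). With ER gene totals it turned for Hsp90b1 (0.22), Manf (0.26), Calr (0.48), Canx (0.40), Pdia6 (0.15), Atf6 (0.21), Sec61a1 (0.19), Sec61b (0.10), Ganab (0.36) and Ins2 (0.0046). Without a filter it turned for Calr (0.077) and Canx (0.011), and with 50 counts in 3 libraries for Hspa5 (-0.016). With 1 library left out the range crossed 0 for Hspa5 (-0.14 to 0.48), Hsp90b1 (-0.49 to 0.10), Hyou1 (-0.12 to 0.35), Manf (-0.49 to 0.080), Calr (-0.20 to 0.23) and Canx (-0.13 to 0.018). Dnajb9 did not pass with 50 counts in 3 libraries (0.82), nor Edem3 without a filter (-0.64), and P4hb (-0.75), Dnajc3 (-0.55) and Edem3 (-0.23) did not pass with ER gene totals. Calls were gained by Dnajb11 with 50 counts in 3 libraries (-0.96) and by Pdia4 (0.79), Eif2ak3 (1.30) and Wfs1 (0.90) with ER gene totals. The cause of these changes was not tested beyond the scaling itself. With 3 libraries a group, 2-fold changes were seldom recovered in the simulation. It changed only 200 genes, whereas 3848 passed in the data, so its recovery rate may not hold here. A member that did not pass may still differ.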

Other observations

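Paralogs and subunits of 1 complex moved apart elsewhere in the ER list too, and these pairs were singled out after their values were seen. The signal peptidase, which cuts the leader from proteins entering the ER, has a catalytic subunit in 2 forms. Sec11c fell (-1.16 ± 0.26; 0.10 with library totals) and Sec11a rose (0.92 ± 0.15) in edgeR's quasi-likelihood test. The call of Sec11c was lost with low glucose replicate 2 (-1.05) or 3 (-0.97), or high glucose replicate 2 (-1.06) or 3 (-1.18), left out. Counts per kilobase of Sec11c relative to Sec11a were 3.00, 4.81 and 4.28 at low and 1.11, 0.836 and 0.96 at high glucose, a ratio that no scaling between libraries alters, and the groups did not overlap. Glucosidase II trims glucose from new glycoproteins and is made of Ganab and Prkcsh. Prkcsh rose, and Ganab did not pass (-0.11 ± 0.15; 1.06 with library totals, where it passed). The Prkcsh to Ganab ratio per kilobase was 0.862, 0.982 and 0.842 at low and 1.93, 1.95 and 1.93 at high glucose, with the 3 high glucose libraries nearly equal. Both ratios had a two-sided exact permutation p of 0.1, the smallest that 3 against 3 libraries allow.

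Os9, a lectin that hands glycoproteins to Sel1l, fell by 1.25 ± 0.24, from 419.4, 627.7 and 687.2 CPM to 251.7, 232.9 and 244.7 CPM, and its groups did not overlap. It was -0.016 with library totals, and with low glucose replicate 2 left out (-1.17) it did not pass. Mbtps1, a protease that cuts ATF6, fell by 0.62 ± 0.13 but was 0.54 with library totals. With low glucose replicate 2 (-0.59), high glucose replicate 2 (-0.60) or high glucose replicate 3 (-0.56) left out, Mbtps1 did not pass.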
